A study of Mus musculus with 18 samples.

Results

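Nodal and Gdf3 are ligands of the TGF-β family, Tdgf1 is the co-receptor that Nodal needs, Acvr2b is one of its receptors, and Lefty1, Lefty2 and Cer1 are secreted antagonists. These 7 genes were taken by symbol from a table of 55487 genes and followed in mouse embryonic stem cells (mESCs) with and without IκBα, encoded by Nfkbia, and in embryoid bodies (EBs) at 48 hr and 96 hr. The cells derive from the ES-E14TG2a line. The WT clones (labelled IkappBalpha+/+) had received non-targeting guides, and the KO clones (labelled IkappBalpha-/-) had received CRISPR guides against exon 1 of Nfkbia; each clone grew from 1 sorted cell. The mESCs were cultured in Serum/LIF, LIF being the cytokine that holds them in the undifferentiated state, and EBs were formed in suspension without LIF. Each of the 3 stages (0, 48 and 96 hr) held 3 WT and 3 KO libraries according to the labels, 18 in all.

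In the embryo, Nodal and Gdf3 bind activin receptors together with the co-receptor Tdgf1 (Cripto), and the receptors phosphorylate Smad2 and Smad3, which enter the nucleus with Smad4 and act with the forkhead factor Foxh1. The pathway switches on its own ligand and also its antagonists, of which Lefty proteins block the ligand and the co-receptor and Cer1 binds Nodal. It is known for patterning the epiblast and for inducing mesendoderm at the primitive streak, and it is active in pluripotent cells.

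The EB columns of the count table show the time and a clone code (D4, E14, E2, E3, H7 or H9), and the labels do not tie a code to a genotype. They also do not say whether the code E14 refers to the name of the ES-E14TG2a line. The genotypes were therefore compared in mESCs only, and EB libraries were compared by stage, so that the spread within an EB stage holds the genotype difference. The same 6 codes stand at 48 hr and 96 hr. Library totals lay between 28287582 and 40904247 counts (median 31596907). Values are given as CPM, the usual depth-normalised read count, here with TMM-scaled library totals. In mESCs, Nfkbia had 34.2, 35.1 and 25.3 CPM in WT clones 1 to 3 and 10.2, 9.44 and 10.1 CPM in KO clones 1 to 3, a log2 fold change of -1.67 (SE 0.14, adjusted p = 0.00489 in edgeR; 0.0633 without WT clone 2). KO clone 2 stood apart: the counts of KO clones 1 and 3 differed by a chi-square of 7.71 per degree of freedom, against 48.4 and 54.9 between either of them and KO clone 2. All 7 pluripotency markers in the list were at 1 CPM or more in every library. In bulk libraries, fewer cells of a type and less RNA per cell cannot be told apart.

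RefSeq promoter windows of GRCm38.p6 were available for 4 of the 7 members. The 250 bases before the RefSeq start are shown for Cer1, the member with the largest change, and Acvr2b, the member that rose at each step. The RefSeq start of Acvr2b lies downstream of the GENCODE start at base 119402118, so the end of its window lies inside the gene as GENCODE annotates it. Capitals mark CAGAC, the Smad box, on either strand (GTCTG when read on the other strand).
Cer1, chr4:82885152-82885401, minus strand: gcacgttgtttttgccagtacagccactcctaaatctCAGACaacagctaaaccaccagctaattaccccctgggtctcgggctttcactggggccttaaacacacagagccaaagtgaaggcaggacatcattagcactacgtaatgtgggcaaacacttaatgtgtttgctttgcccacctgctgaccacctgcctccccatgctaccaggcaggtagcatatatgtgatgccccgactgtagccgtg
Acvr2b, chr9:119401928-119402177, plus strand: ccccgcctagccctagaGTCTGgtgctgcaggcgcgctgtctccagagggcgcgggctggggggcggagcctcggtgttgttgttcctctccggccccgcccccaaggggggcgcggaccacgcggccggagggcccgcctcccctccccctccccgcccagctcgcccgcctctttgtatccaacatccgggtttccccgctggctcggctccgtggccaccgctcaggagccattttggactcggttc
Each window held 1 match, as did that of Tdgf1, and that of Nodal held 0. CAGAC was present in 42.2% of the 32851 windows of this length, so a match is frequent by its length alone. TGTGGAT, the core bound by Foxh1, and TCACACC, the T-box core, were searched on both strands and were in none of the 4 members' windows, against 2.78% and 3.33% of all windows. The windows and motifs were chosen after the values were seen.

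Nodal lies on chromosome 10 (61417972 to 61425338, plus strand), Gdf3 on chromosome 6 (122605403 to 122610087, minus), Tdgf1 on chromosome 9 (110939603 to 110946158, minus), Acvr2b on chromosome 9 (119402118 to 119434995, plus) and Cer1 on chromosome 4 (82881751 to 82885148, minus) of GRCm38. Lefty2 (180893108 to 180899103) and Lefty1 (180935022 to 180938400) are neighbours on the plus strand of chromosome 1. The exons of the 7 members overlap no exon of another annotated gene. Lefty1 and Lefty2 are similar in sequence, but only 17 of the 1496 windows of 125 bases (the read length) in the Lefty1 transcript occur unchanged in that of Lefty2.

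Tdgf1 has a processed copy without introns, Tdgf1-ps1 on chromosome 16, whose 513 bases match the Tdgf1 transcript at 98.6% of positions, with 7 differences. The stretch of 90 bases with most differences is shown because these bases decide to which locus a read is assigned; capitals mark the 4 differing bases, and the Tdgf1 stretch lies in the coding part of its last exon.
Tdgf1, chr9:110940707-110940796, minus strand: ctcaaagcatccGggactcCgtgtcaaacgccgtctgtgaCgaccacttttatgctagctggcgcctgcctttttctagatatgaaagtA
Tdgf1-ps1, chr16:3730933-3731022, plus strand: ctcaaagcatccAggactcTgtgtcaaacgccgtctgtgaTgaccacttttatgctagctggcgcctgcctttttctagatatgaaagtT
Reads from the 36 windows of 125 bases that are identical in both cannot by themselves be assigned to either locus. Reads that match several loci are missing from the counts. Between 756 and 3322 reads per library with a unique alignment were counted on Tdgf1-ps1. The uncertainty that the copy brings to the level of Tdgf1 was not measured.

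In WT mESCs, 6 of the 7 members were expressed and Cer1 was close to absent. Per kilobase of exon, the mean levels were 172 CPM per kb for Tdgf1 (SD 9.55, n = 3), 40.9 for Lefty1 (SD 5.43), 33.0 for Nodal (SD 0.868), 25.1 for Gdf3 (SD 2.13), 21.3 for Lefty2 (SD 2.67), 6.17 for Acvr2b (SD 0.463) and 0.0317 for Cer1 (SD 0.0216). Neighbours in this order differed by more than the sum of their SDs except Gdf3 and Lefty2. At 96 hr the mean order was Tdgf1 (124 CPM per kb, SD 24.9, n = 6), Lefty1 (84.5, SD 58.4), Lefty2 (40.0, SD 30.2), Nodal (39.6, SD 12.3), Cer1 (16.2, SD 23.9), Acvr2b (13.9, SD 2.21) and Gdf3 (10.9, SD 5.04), and every neighbouring pair in this order differed by less than the sum of their SDs.

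**Figure D1:**
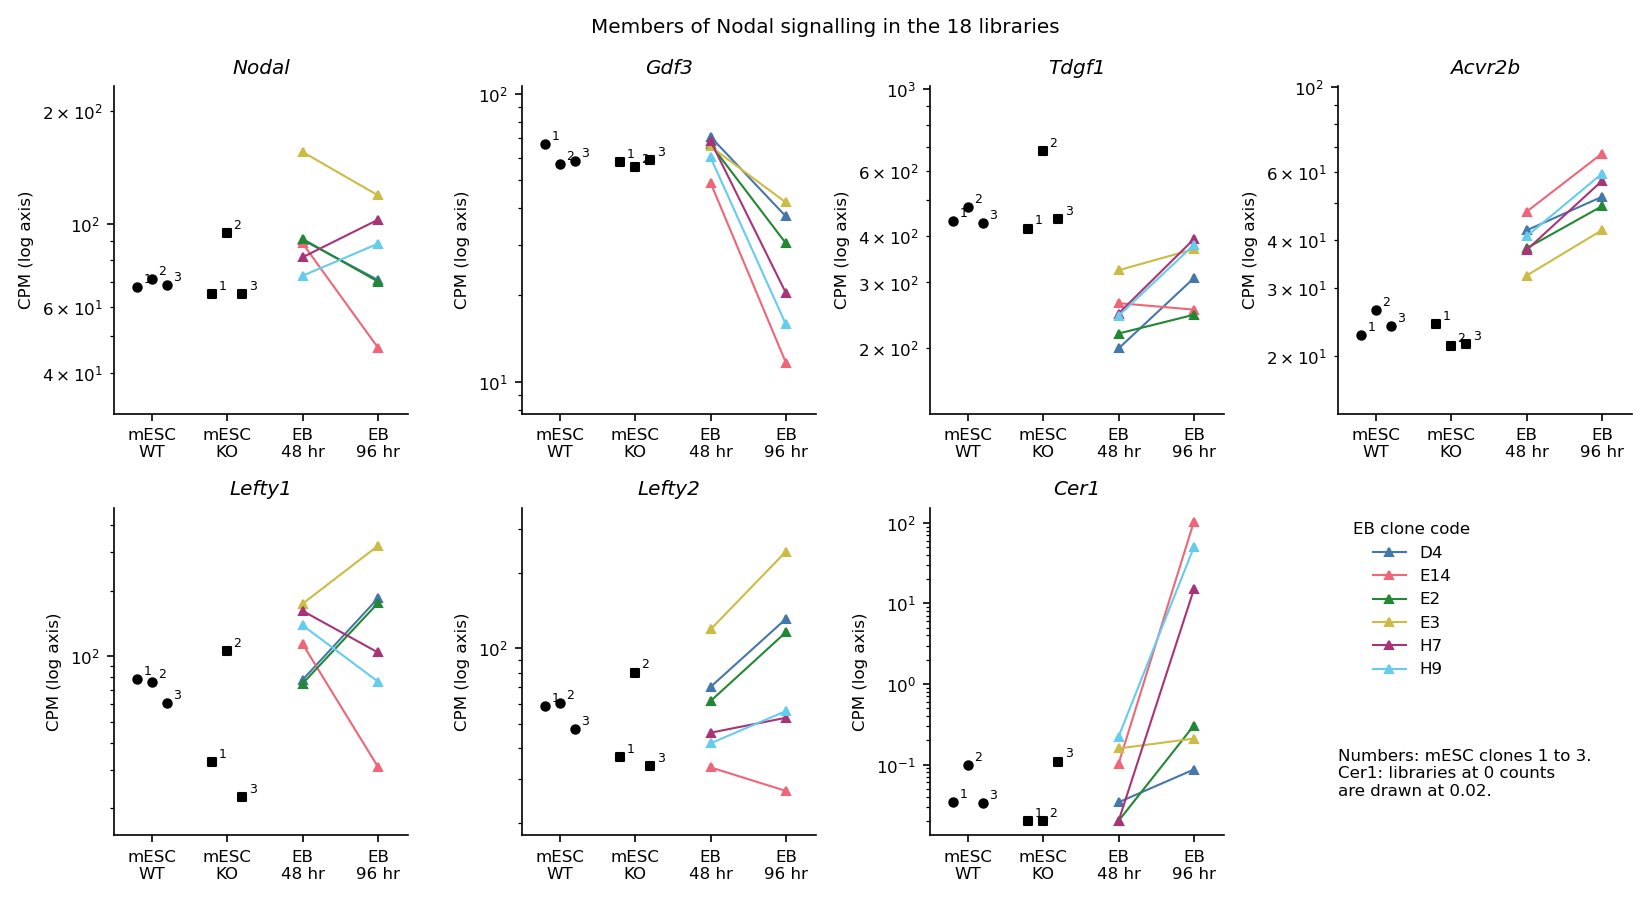
CPM of the 7 members in the 18 libraries on log axes that differ between panels, with Cer1 libraries at 0 counts drawn near the foot of the axis; circles and squares are WT and KO mESC clones, and each coloured line joins the 48 hr and 96 hr EB libraries of 1 clone code. Gdf3 falls and Acvr2b rises in all 6 codes, whereas Cer1 is above 10 CPM at 96 hr in the codes E14, H7 and H9 only.

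To ask whether loss of IκBα altered the pathway before differentiation, KO and WT mESCs were compared. No member passed the test. Of the 6 members with at least 10 counts over the 6 libraries, 0 had an adjusted p under 0.05 by edgeR's quasi-likelihood test, 0 by the DESeq2 Wald test and 0 had an unadjusted p under 0.05 in edgeR, against 4.79% of all 21843 genes called by edgeR. No member separated the WT from the KO libraries without overlap, as 28.9% of all genes did. Cer1 had 9 counts over the 6 libraries and was not tested. An exact permutation test of 3 against 3 libraries cannot give a p below 0.1, and p-values here measure the spread between clones.

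The ligands were close in both genotypes. Nodal had 67.7, 71.2 and 68.5 CPM in WT clones 1 to 3 and 65.0, 94.2 and 64.7 CPM in KO clones 1 to 3. KO clone 2 was thus the highest of the 6 and KO clones 1 and 3 the lowest. The log2 fold change of Nodal was 0.11 (SE 0.14, adjusted p = 0.702 from edgeR), and -0.085 without KO clone 2. Gdf3, a ligand also expressed by pluripotent cells, had 66.7, 57.1 and 58.4 CPM in WT and 57.9, 55.6 and 58.9 CPM in KO clones, with a log2 fold change of -0.08 (SE 0.09, adjusted p = 0.649 from edgeR).

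Co-receptor and receptor showed the same. Tdgf1 had 440, 480 and 434 CPM in WT clones and 420, 680 and 445 CPM in KO clones, KO clone 2 again being the highest. Its log2 fold change was 0.19 (SE 0.16, adjusted p = 0.547 from edgeR), and -0.054 without KO clone 2. Acvr2b ranged from 22.6 to 26.2 CPM in WT and from 21.2 to 24.2 CPM in KO clones (log2 fold change -0.12, SE 0.10, adjusted p = 0.530 from edgeR).

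The antagonists varied most between KO clones. Lefty1 had 78.7, 76.2 and 61.0 CPM in WT clones 1 to 3, and 32.6, 105 and 22.6 CPM in KO clones 1 to 3. Lefty2 had 58.9, 60.3 and 47.6 CPM in WT clones, and 36.8, 80.0 and 33.7 CPM in KO clones. For both genes, KO clones 1 and 3 lay below every WT clone and KO clone 2 above every WT clone. Over all 6 libraries the log2 fold change was -0.43 for Lefty1 (SE 0.50, adjusted p = 0.675) and -0.15 for Lefty2 (SE 0.29, adjusted p = 0.813, edgeR). Without KO clone 2, a choice made after its values were known, the log2 fold change was -1.38 for Lefty1 (SE 0.21, adjusted p = 0.0122) and -0.65 for Lefty2 (SE 0.10, adjusted p = 0.00198); both passed, in a fit that called 17.8% of 21001 genes. Lefty2 was at 0.018 without KO clone 1 and at 0.058 without KO clone 3 on the log2 scale.

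Markers of visceral and primitive endoderm were highest in the KO clones with the lowest Lefty1 and Lefty2. Their summed level over 10 genes was 14.5 to 17.6 CPM in WT clones, 77.9 and 121 CPM in KO clones 1 and 3, and 23.2 CPM in KO clone 2. Of the 10 markers, 7 were at 1 CPM or more in KO clones 1 and 3, 3 in KO clone 2 and 4 or 5 in WT clones. Dab2, an endocytic adaptor of endoderm, made up most of the sum (42.8 and 74.0 CPM in KO clones 1 and 3, 6.34 to 9.11 CPM in WT), while Hnf4a, a nuclear receptor of endoderm and the 1 marker called of 8 tested (log2 fold change 1.84, SE 0.22, adjusted p = 0.00712, edgeR), was at 9.83 to 11.1 CPM in all 3 KO clones, KO clone 2 included, and at 1.98 to 3.69 CPM in WT. Of all genes tested, 3.09% were called higher in KO. The mature endoderm genes Ttr and Afp had at most 5 and 2 counts in any mESC library. The summed level of primed epiblast markers was lower in all 3 KO clones, at 510 to 585 CPM over 5 genes against 748 to 1122 CPM in WT. KO clone 2 (585 CPM) did not stand apart on this list. Dnmt3b made up most of this sum (577 to 887 CPM in WT, 354 to 426 CPM in KO). Of the 5 markers, 3 were called lower in KO by edgeR (Fgf5, Pou3f1 and Dnmt3b), against 1.69% of all genes tested. Dnmt3a was not lower, at 130 to 151 CPM in WT and 134 to 155 CPM in KO. The part of these cells in the Lefty values was not tested.

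**Figure D2:**
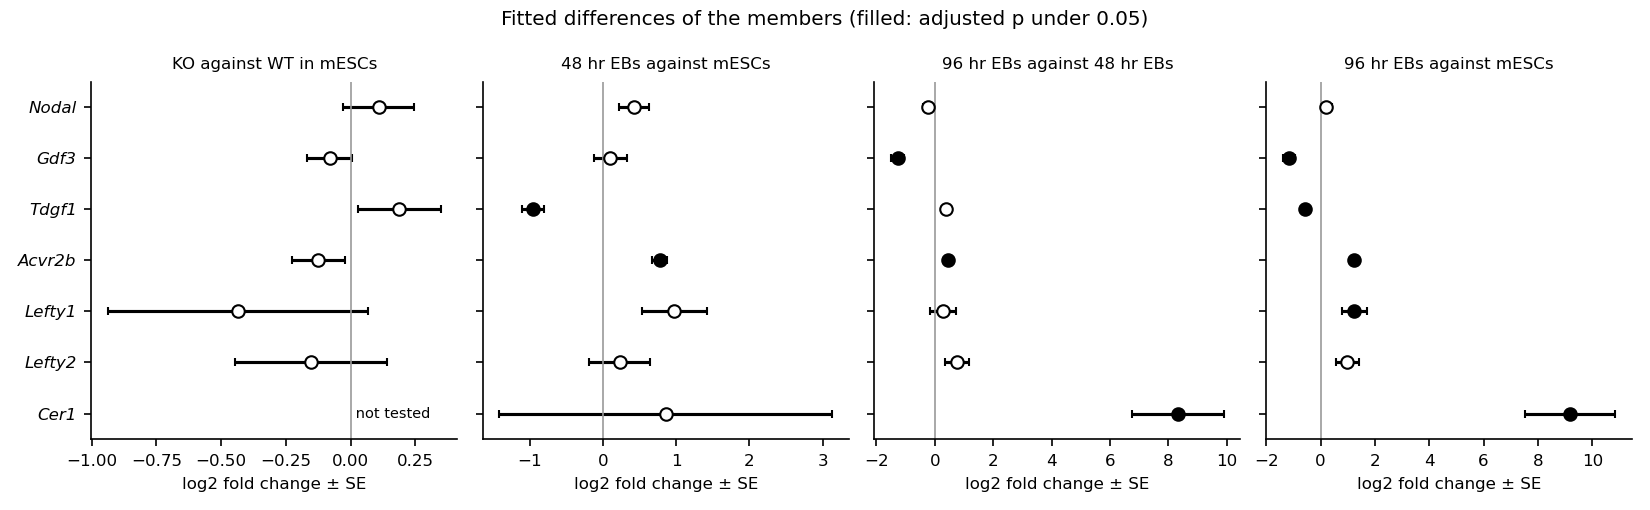
Fitted log2 fold changes of the 7 members in 4 comparisons, with bars of 1 SE; filled points have an adjusted p under 0.05. No point is filled for KO against WT, and Cer1 has the largest difference at 96 hr.

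At 48 hr without LIF, Tdgf1 had fallen and Acvr2b had risen, and the other 5 members did not pass the test. This gives 2 of 7 members called against 27.9% of 25318 genes, and 2 of 7 without overlap between the 12 libraries against 16.7% of genes. Tdgf1 ranged from 420 to 680 CPM in the 6 mESC libraries (median 442) and from 199 to 324 CPM in the 48 hr EBs (median 245). The log2 fold change was -0.95 (SE 0.15, adjusted p = 8.29e-05, edgeR), and the exact permutation test gave p = 0.00216 (n = 6 against 6, two-sided), the smallest it can give. Acvr2b ranged from 21.2 to 26.2 CPM (median 23.3) in mESCs and from 32.3 to 47.4 CPM (median 39.5) at 48 hr. It rose by 0.77 on the log2 scale (SE 0.11, adjusted p = 2.62e-05, edgeR; exact permutation p = 0.00216). Neither gene's groups overlapped.

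Nodal and Lefty1 were higher on average at 48 hr without passing. Nodal ranged from 64.7 to 94.2 CPM in mESCs (median 68.1) and from 72.6 to 155 CPM at 48 hr (median 89.6), with overlap. Its log2 fold change was 0.43 (SE 0.20, adjusted p = 0.126, edgeR), with an exact permutation p of 0.0325 that is not adjusted over genes. Its highest library was code E3, the other 5 lying at 91.1 CPM or below. Lefty1 ranged from 22.6 to 105 CPM in mESCs (median 68.6) and from 74.8 to 174 CPM at 48 hr (median 126). Its log2 fold change was 0.97 (SE 0.44, adjusted p = 0.113, edgeR), with an unadjusted exact permutation p of 0.0216. Fitted on the 12 libraries of these stages alone, its adjusted p was 0.0421. Lefty2 (medians 53.3 and 53.8 CPM; log2 fold change 0.23, SE 0.42) and Gdf3 (medians 58.2 and 66.2 CPM; log2 fold change 0.10, SE 0.23) had differences within 1 SE of 0. Cer1 stayed between 0 and 6 counts in each 48 hr library. All 5 primed epiblast markers were called higher at 48 hr and 6 of 7 pluripotency markers lower, against 14.9% and 13.0% of all genes. The part of this change of cell state in the members' values was not tested.

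Between 48 hr and 96 hr, Gdf3 fell, Acvr2b rose further and Cer1 appeared. This is 3 of 7 members called against 27.7% of genes. With the clone code as a block the members called were 5 of 7, now with Tdgf1 and Lefty2, against 37.7% of 23836 genes. The comparison shares the 48 hr libraries with the one before it. Only Gdf3 separated the 12 libraries without overlap (1 of 7 members, against 8.94% of genes).

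Gdf3 ranged from 49.1 to 70.8 CPM at 48 hr (median 66.2) and from 11.7 to 41.9 CPM at 96 hr (median 25.3). Its log2 fold change was -1.27 (SE 0.23, adjusted p = 0.000818, edgeR). It fell in all 6 codes, to 0.530, 0.238, 0.454, 0.640, 0.298 and 0.264 of the 48 hr level in D4, E14, E2, E3, H7 and H9 (exact sign-flip permutation p = 0.0312, n = 6, two-sided, the smallest possible). The steepest falls were in E14, H9 and H7.

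Acvr2b ranged from 42.4 to 67.2 CPM at 96 hr (median 54.4), with a log2 fold change of 0.45 over 48 hr (SE 0.11, adjusted p = 0.00448, edgeR). The increase lay between 1.22-fold in D4 and 1.51-fold in H7, the narrowest span of the 7 members (SD 0.12 in log2 CPM over codes). Tdgf1 ranged from 245 to 393 CPM (median 339), above its 48 hr level in 5 of 6 codes and at 0.960 of it in E14. Its log2 fold change of 0.38 (SE 0.15) had an adjusted p of 0.0584 in edgeR and 0.0184 with the clone code as a block. Each of the left-out libraries KO clone 1, KO clone 2, 48 hr E3, 96 hr E14 and 96 hr E2 brought it under 0.05 (0.0499, 0.0304, 0.0246, 0.0307 and 0.0283).

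Cer1, an antagonist secreted by anterior endoderm and mesendoderm, had 15 counts over the 6 libraries at 48 hr and 6102 at 96 hr. Its 96 hr values were 0.0867 CPM in D4, 103 in E14, 0.305 in E2, 0.210 in E3, 14.9 in H7 and 49.9 in H9. E14, H7 and H9 were thus high and D4, E2 and E3 were near the mESC level. E14 rose from 3 to 3942 counts, a ratio of CPM of 1007 (95% exact counting interval 344 to 4887), and H9 from 6 to 1668, a ratio of 225 (103 to 614). H7 rose from 0 to 470 counts, at least 159-fold against a floor of 3 counts in the 48 hr library. D4 went from 1 to 3 counts, a ratio of 2.55 (0.205 to 134), and E3 from 5 to 8, a ratio of 1.33 (0.382 to 5.15), intervals that hold 1, while E2 went from 0 to 11 counts (at least 3.02-fold). These intervals and floors cover counting error only. The fitted log2 fold change of Cer1 was 8.32 (SE 1.58, adjusted p = 0.00115, edgeR). Its mean was 0.0862 CPM at 48 hr and 28.1 CPM at 96 hr (SD 41.6), and the 96 hr mean rested on E14, H7 and H9.

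The Lefty genes went different ways in different codes. Lefty1 had 184, 31.0, 175, 321, 104 and 76.4 CPM at 96 hr in D4, E14, E2, E3, H7 and H9, against 77.8, 114, 74.8, 174, 161 and 138 CPM at 48 hr. It rose 2.37-fold, 2.34-fold and 1.85-fold in D4, E2 and E3, and stood at 0.273, 0.644 and 0.552 of the 48 hr level in E14, H7 and H9, the codes in which Cer1 was high. The fitted log2 fold change over all codes was 0.27 (SE 0.44, adjusted p = 0.692, edgeR), and -0.11 without 96 hr E3. Lefty2 had 131, 26.9, 116, 243, 52.8 and 56.2 CPM at 96 hr in the same order, and 70.1, 33.4, 61.6, 119, 46.0 and 41.7 CPM at 48 hr. It was higher at 96 hr in 5 of 6 codes, by 1.15-fold to 2.05-fold, and at 0.805 of the 48 hr level in E14. Lefty2 had a log2 fold change of 0.75 (SE 0.42, adjusted p = 0.193, edgeR) and of 0.57 (SE 0.18, adjusted p = 0.0380) with the clone code as a block; the exact sign-flip permutation test over codes gave p = 0.0938 (n = 6).

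Nodal itself did not pass. It had 70.8, 46.7, 70.1, 119, 102.4 and 88.4 CPM at 96 hr in D4, E14, E2, E3, H7 and H9. The values were higher than at 48 hr in H7 (1.26-fold) and H9 (1.22-fold) and lower in the other 4 codes, down to 0.527 of the 48 hr level in E14. The log2 fold change was -0.22 (SE 0.20, adjusted p = 0.438, edgeR).

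**Figure D3:**
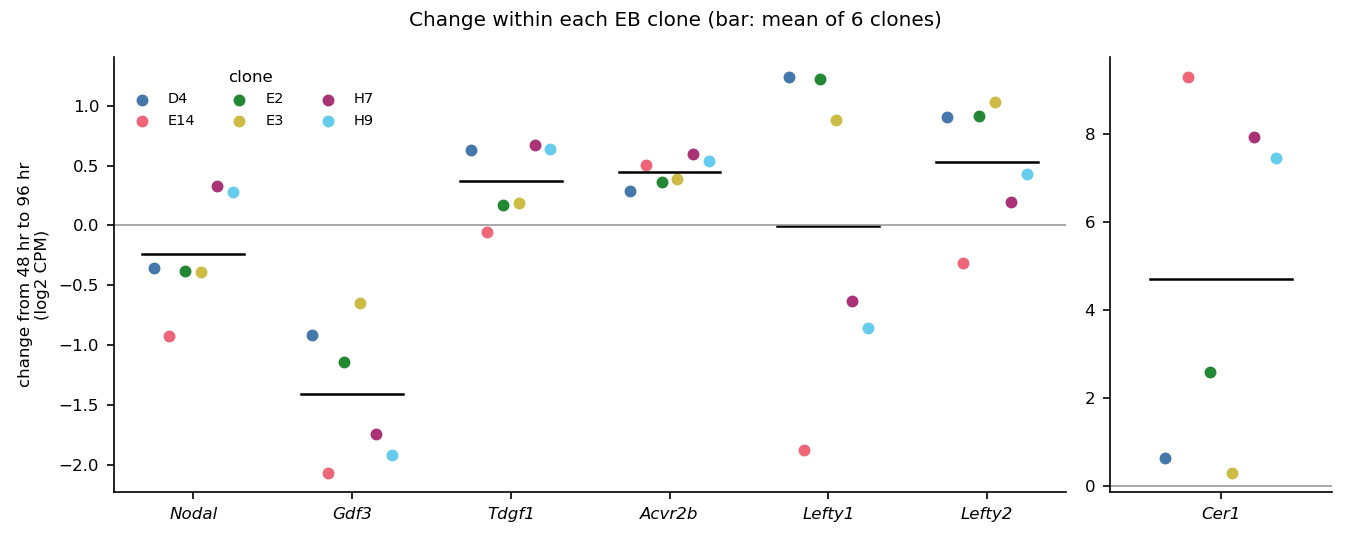
Change in log2 CPM from 48 hr to 96 hr within each of the 6 EB clone codes, with the mean as a bar; Cer1 has its own axis. Gdf3 lies below 0 and Acvr2b above 0 in all 6 codes, and Lefty1 splits into 3 codes above and 3 below 0.

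Markers of the primitive streak and mesoderm moved with Cer1. Their sum over 7 genes was 1090, 616 and 935 CPM at 96 hr in E14, H7 and H9 and 16.1 to 26.8 CPM in D4, E2 and E3, against 8.34 to 12.1 CPM in mESCs. All 7 were at 1 CPM or more in E14, H7 and H9. The summed level of the neuroectoderm list (5 genes) was also higher in these libraries, at 118, 183 and 217 CPM in E14, H7 and H9 and 56.6 to 62.2 CPM in D4, E2 and E3. Nes made up most of this sum (45.8 to 213 CPM over the 6 libraries), while Sox1, Pax6, Zic1 and Six3 reached at most 2.83, 8.58, 0.462 and 3.62 CPM. Of the 5 genes, 2 were at 1 CPM or more in E14 and H9, and 3 in H7, D4, E2 and E3. The sum of the pluripotency list (7 genes) was lower, at 628, 1286 and 1061 CPM in E14, H7 and H9 against 1399 to 1599.8 CPM in D4, E2 and E3. The endoderm list summed to 212 CPM in E14 at 96 hr and to between 22.5 and 68.6 CPM in the other 5 libraries. The primed epiblast and fibroblast lists did not follow Cer1. Primed epiblast markers summed to 1180.5, 2054 and 1497 CPM in E14, H7 and H9 and to 1351 to 1989 CPM in D4, E2 and E3. Fibroblast markers summed to 29.6, 13.5 and 18.3 CPM and to 10.8 to 16.6 CPM in the same sets. The part of these cells in the Cer1, Gdf3 and Lefty1 values was not tested.

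From mESCs to 96 hr, 5 of 7 members passed, against 43.0% of genes. The comparison shares libraries with both steps above. Acvr2b was higher by 1.23 on the log2 scale (SE 0.11, adjusted p = 1.21e-07, edgeR), Gdf3 was lower with a log2 fold change of -1.17 (SE 0.23, adjusted p = 0.000490) and Tdgf1 with -0.57 (SE 0.15, adjusted p = 0.00396). These 3 genes separated the groups without overlap, as 22.9% of genes did. Cer1 was higher (adjusted p = 0.000252) with 9 counts over the mESC libraries. Lefty1 had a log2 fold change of 1.24 (SE 0.45, adjusted p = 0.0312, edgeR), with 96 hr values from 31.0 to 321 CPM that overlapped those of mESCs. In the exact permutation test Lefty1 had p = 0.108. Its adjusted p rose to 0.101 without 96 hr E3, 0.0639 without KO clone 1, 0.0638 without KO clone 3, 0.0541 without 96 hr D4 and 0.0519 without 96 hr E2, to 0.0536 in the 12 libraries of these stages alone, and to 0.0602 with no low-count filter. Lefty2 (0.98, SE 0.42, adjusted p = 0.0691) missed the threshold and passed it without 96 hr E14 (0.020) or 96 hr H7 (0.0474), and Nodal did not pass (0.21, SE 0.20, adjusted p = 0.434).

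The rest of the pathway was read from a list of 35 genes. In mESCs, 1 of its 33 tested genes was higher in KO and 1 lower, against 3.09% and 1.69% of all genes tested (median log2 fold change 0.20, against 0.01 over all genes). Skil, which encodes SnoN, a repressor that binds Smads, had 256, 314 and 322 CPM in WT clones and 154, 183 and 157 CPM in KO clones 1 to 3. The groups did not overlap, and the log2 fold change was -0.85 (SE 0.10, adjusted p = 0.00626, edgeR), with adjusted p = 0.0672 without WT clone 2 and 0.0585 without WT clone 3. Furin, a protease that cleaves the Nodal precursor, had 11.9 to 13.0 CPM in WT and 15.9 to 19.9 CPM in KO clones, a log2 fold change of 0.53 (SE 0.12, adjusted p = 0.0451). This call was lost without any single library other than KO clone 2: the adjusted p was 0.143, 0.178 and 0.196 without WT clones 1 to 3, and 0.116 and 0.0721 without KO clones 1 and 3.

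At 48 hr, 8 of 34 tested genes of the list were higher and 3 lower than in mESCs, against 14.9% and 13.0% of all genes (median log2 fold change 0.24, against 0.00 over all genes). Among effectors, Foxh1 rose from 24.5 to 64.8 CPM in mESCs to a median of 91.1 CPM (88.6 to 162), and the groups did not overlap (log2 fold change 1.51, SE 0.22, adjusted p = 5.67e-05). Among the target genes, Fgf8, a growth factor of the primitive streak, rose from a median of 0.313 to 2.97 CPM (log2 fold change 3.72, SE 0.83, adjusted p = 0.00246, edgeR). Inhbb, which encodes a subunit of activin B, fell from a median of 25.9 to 3.80 CPM (log2 fold change -2.53, SE 0.60, adjusted p = 0.00384, edgeR).

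Between 48 hr and 96 hr, 15 of 34 tested genes rose and 2 fell, against 13.9% and 13.8% of all genes (median log2 fold change 0.56, against -0.03 over all genes). Targets accounted for 8 of the 15 (Gsc, Eomes, Mixl1, T, Foxa2, Lhx1, Sox17 and Fgf8), of which Sox17 no longer passed with the clone code as a block (adjusted p = 0.103). The calls of Sox17 (adjusted p = 0.0847 without 96 hr E14), the receptor gene Acvr2a (0.0559 without 96 hr H9), Fst (up to 0.0918, without 96 hr H9) and Pcsk6 (up to 0.132, without 48 hr D4) rested on single libraries, and for Fst and Pcsk6 on any of several. With the clone block, 14 of 33 tested genes of the list rose and 5 fell, against 19.3% and 18.5% of all genes. The call of the co-receptor gene Cfc1 (log2 fold change 4.12, SE 0.98, adjusted p = 0.00516, edgeR) was also lost with this block (2.33, SE 0.97, adjusted p = 0.100). Lhx1, an organizer gene, was at 0.577 to 1.77 CPM in D4, E2 and E3 at 96 hr and at 172, 27.0 and 93.7 CPM in E14, H7 and H9. Mixl1, a homeobox gene of the primitive streak, was at 1.21 to 1.503 CPM in D4, E2 and E3 and at 126, 70.0 and 140 CPM in E14, H7 and H9. Both were thus high in the codes with high Cer1; T, Mixl1, Eomes and Gsc of this list are also in the streak list above. The kinase receptor gene Acvr1b (log2 fold change 0.77, SE 0.13, adjusted p = 0.000535), Smad3 (1.11, SE 0.19, adjusted p = 0.000433) and Furin (1.11, SE 0.17, adjusted p = 0.000253) rose as well, and Inhbb fell by 2.78 on the log2 scale (SE 0.64, adjusted p = 0.00437).

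**Figure D4:**
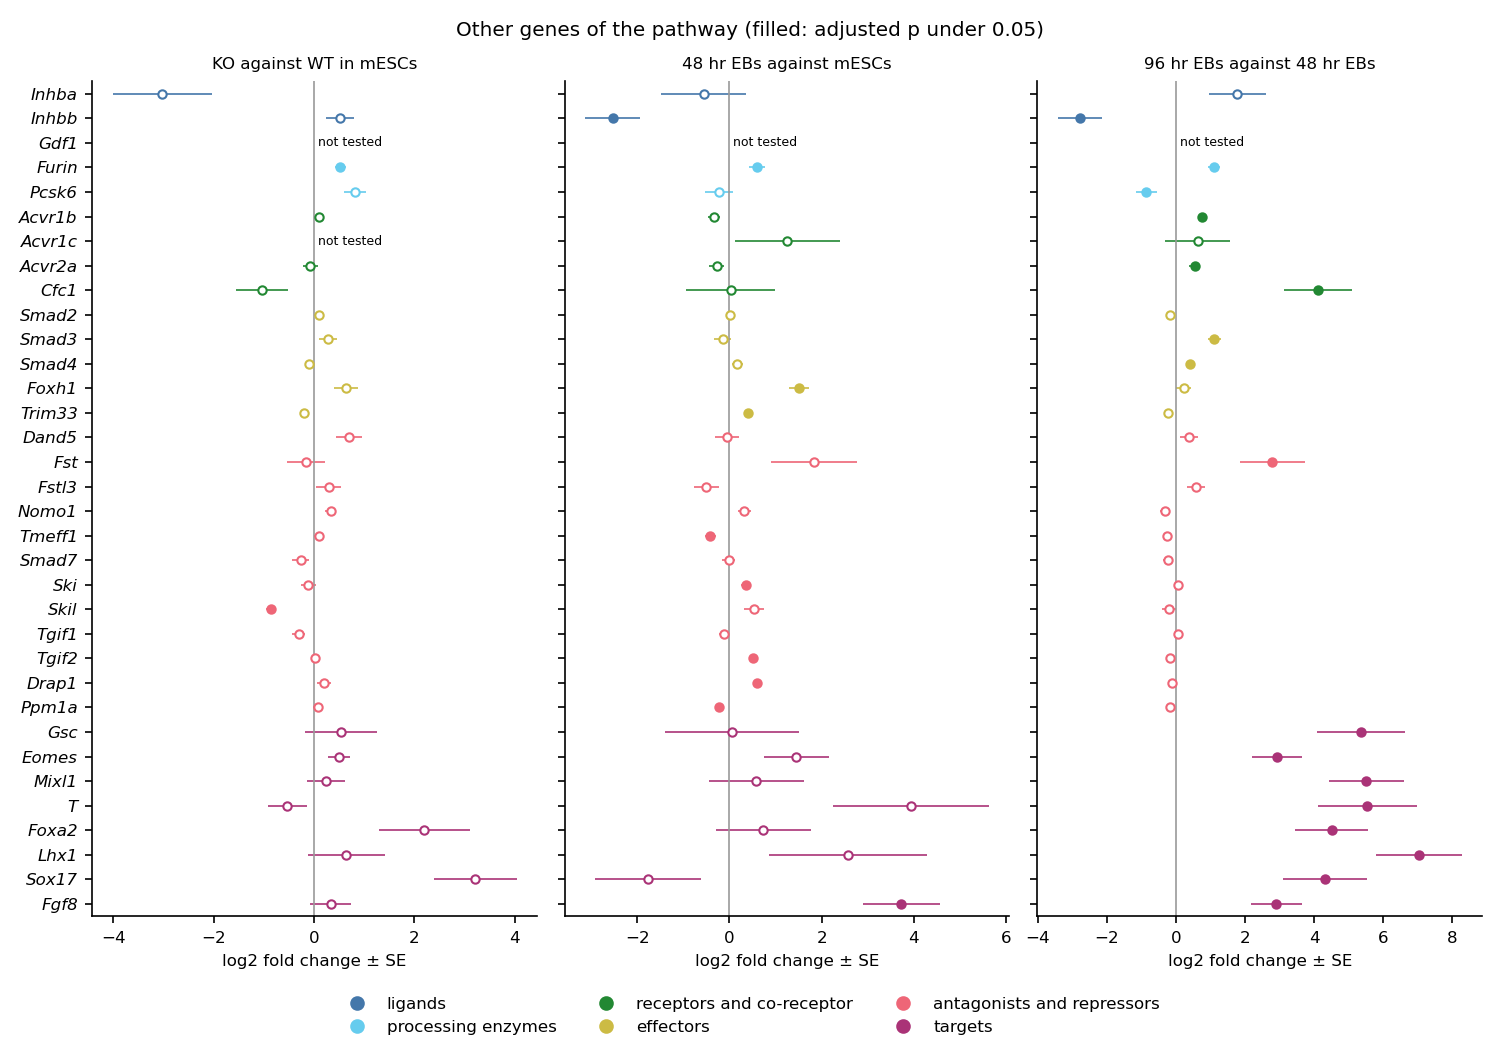
Fitted log2 fold changes of 34 other pathway genes, ordered and coloured by role, in 3 comparisons with bars of 1 SE; filled points have an adjusted p under 0.05. Of the targets drawn, 0 are filled for KO against WT, 1 at 48 hr and 8 from 48 hr to 96 hr.

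Across the 18 libraries, the members followed different profiles. As a description over libraries that share stage and clone, Pearson's r of log2 CPM was -0.94 between Gdf3 and Cer1, -0.72 between Gdf3 and Acvr2b, 0.77 between Lefty1 and Lefty2, 0.62 between Nodal and Lefty1 and 0.59 between Nodal and Lefty2. Of the 13166 genes averaging 50 or more counts per library, those most like Cer1 were Mixl1 (0.96), Aplnr (0.96) and Zfp703 (0.96). Those most like Acvr2b were Limd1 (0.99), Mknk2 (0.99) and Ppp1r26 (0.98), and those most like Gdf3 were Depdc7, Gsta4 and Jade1 (0.98 each). Tdgf1 was most like its copy Tdgf1-ps1 (0.98), then Rundc3b (0.95) and Fam229b (0.90). Genes like Lefty1 were Tmco4 (0.90) and Crmp1 (0.88). Lefty2 was most like Klf10 (0.89), Ccdc155 (0.86) and Cox7a1 (0.83), and Nodal like Arhgef18 (0.84), Phf21b (0.83) and Poldip3 (0.83).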

How the data were processed

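RNA-seq was performed in 18 libraries. As stated in the methods and the submitters' processing notes, the authors trimmed reads with Trim Galore 0.6.6, aligned them with STAR 2.7.8 to GRCm38, used featureCounts to count the reads with a unique alignment on exons (Subread 2.0.1) and deposited raw counts per gene. The strand setting is not given in the sources used here, and reads that match several loci are missing from the counts. A deposited table of normalized values (18 columns) was not used.

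Genes with at least 10 summed counts were scaled by TMM and tested with edgeR 4.0.16 in R 4.3.3 (quasi-likelihood test, robust, Benjamini-Hochberg over all genes tested). KO was compared with WT in the 6 mESC libraries, and stages were compared in 1 fit of the 18 libraries that does not pair the clone codes. With the code as a block, Gdf3, Acvr2b and Cer1 kept their calls from 48 hr to 96 hr (adjusted p = 0.00175, 0.000544 and 0.00165, edgeR). Nodal still did not pass (adjusted p = 0.362, edgeR). A gene was called at an adjusted p under 0.05. An SE was taken as |log2 fold change|/√F, F being the test statistic. Log2 CPM used a prior count of 2. Symbols, positions and exon lengths came from GENCODE M21 for 55141 of 55487 genes. The fits were tested on simulated counts with known changes. The clone codes of the column names pair 48 hr with 96 hr libraries, whose deviations from the stage means had correlations of 0.40 to 0.73 for the 6 codes. Libraries of 1 group always differed beyond sampling noise (lowest chi-square 5.04 for each degree of freedom). Named are the 7 members, Nfkbia and pathway genes past the threshold, with the 3 genes most like each member; some items this names are not reported here. The members and lists were chosen with earlier results of these data known. Alternatives were DESeq2 1.42.0 size factors and Wald test, other filters, a fold threshold, each library left out, replicate blocks, 10 Mb window offsets, and other groupings of the stages.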

Additional observations from a re-analysis of the deposited data

Results flagged for a closer look

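Nodal in the 48 hr EBs of code E3 stood apart from the other 5 libraries of its stage. It was at 155 CPM, against 72.6 to 91.1 CPM in the others, and the gap to the nearest library was 0.703 of the range of the 6 log2 CPM values, above Dixon's 95% critical value for 6 samples. Of 14 groups of 6 libraries tested (7 members at 2 stages) this was the only 1 past that value, and chance alone flags about 1 in 20.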

How the results depend on the processing

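The number of genes called between KO and WT mESCs, 1046 in the edgeR test, was 372 with an absolute log2 fold change over 1 as well, 2133 with the DESeq2 Wald test, 631 with the replicate number of the labels as a block, and between 0 and 3736 with 1 library left out. The 0 arose in edgeR without WT clone 2, where 3104 genes had an unadjusted p under 0.05, and the 3736 without KO clone 2. With the fold threshold the stage comparisons called 2422 (48 hr against mESCs), 3003 (96 hr against 48 hr) and 5278 genes (96 hr against mESCs), and with 1 library left out 6196 to 7583, 5260 to 8589 and 9854 to 11746. The clone block gave 8994 genes for 96 hr against 48 hr. Same-numbered WT and KO clones did not deviate together (correlations -0.16, 0.00 and -0.02), so these numbers pair nothing, and the block on them called no member. With 1 library left out, the log2 fold change of KO against WT ran from -0.085 to 0.19 for Nodal, -0.054 to 0.31 for Tdgf1 and -0.65 to 0.058 for Lefty2. It ran from -0.065 to 0.38 for Lefty2 at 48 hr against mESCs and from -0.11 to 0.52 for Lefty1 at 96 hr against 48 hr. Of the members' 573 values under alternatives, 546 kept direction and side of the threshold. Of the rest, 7 lost the call, 14 gained one and 6 changed direction, for causes that were not tested. The alternatives share most of their libraries, and some left out a library of the stage not compared. These counts therefore do not measure independent agreement. Cer1 was removed by the filterByExpr filter and has no value there. Cer1 had 9 counts over the mESC libraries and 15 over the 48 hr libraries. In the stage comparisons, the spread of the other members holds both clone and genotype differences, which cannot be told apart in EBs.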

Other observations

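At 96 hr the libraries fell into separate sets on Cer1, with E14, H7 and H9 at 103, 14.9 and 49.9 CPM and D4, E2 and E3 at 0.0867, 0.305 and 0.210 CPM. Fst, a secreted antagonist of activin, was at 129, 271 and 309 CPM in E14, H7 and H9 and at 8.53, 12.2 and 17.9 CPM in D4, E2 and E3. The co-receptor gene Cfc1, a relative of Tdgf1, was at 35.6, 1.46 and 7.40 CPM in E14, H7 and H9 and at 0.405 to 0.693 CPM in D4, E2 and E3. No test was run between these sets, since they were read from the values and the labels do not give them.

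KO clone 2 was the highest mESC library for Nodal, Tdgf1, Lefty1, Lefty2 and Foxh1 (64.8 CPM, against 24.5 to 33.9 CPM in the other 5). Code E3 was the highest 48 hr library for the same 5 genes (Foxh1 162 CPM, against 88.6 to 93.3 CPM). The labels do not tie mESC clone numbers to EB clone codes.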
